A study of Mus musculus with 3 samples.

Results

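The genes described are the subunits of the mouse proteasome as an expression array measured them in embryonic stem (ES) cells and in B cells and CD4 T cells of the spleen. They were taken by symbol: every gene beginning with Psma, Psmb, Psmc, Psmd or Psme and a digit that had a probe set (a group of probes for a transcript) annotated to 1 symbol, except the immunoproteasome genes Psmb8, Psmb9 and Psmb10. This gave 41 of the 18193 genes on the array with such a probe set, read by 87 probe sets, and each gene is represented by the probe set that is brightest on average over the 3 arrays. The symbol also takes in genes whose products are not subunits of the finished particle. Psmc3ip acts in meiotic recombination, and the product of Psme3ip1 binds the activator encoded by Psme3. Psmd5, Psmd9 and Psmd10 encode chaperones that assemble the base of the particle. Psme2 had no probe set of a single symbol and was not analysed here.

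All cells were of the C57BL/6 strain. The ES cells were the B6N-22 line, grown with leukemia inhibitory factor on embryonic fibroblasts whose division had been blocked with mitomycin C, and the labels do not say whether these fibroblasts were removed before RNA was taken. The B cells (sorted as B220 cells) and the CD4 T cells were isolated from the spleen with magnetic beads, to a purity above 98%, in animals of 6 to 8 weeks. The number of animals behind the lymphocytes is not stated. Each population has 1 array, so no difference has a replicate error and nothing was tested. The precision of each value is limited by this number of arrays.

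The proteasome degrades proteins that carry a ubiquitin chain. Its 20S core particle is a barrel of alpha and beta rings with the peptide-cutting sites on 3 of the beta subunits. The 19S regulatory particle caps the barrel. Its base holds a ring of ATPases that unfold the substrate, and its lid holds the enzyme that removes ubiquitin. Lymphocytes and cells exposed to interferon can build the core with Psmb8, Psmb9 and Psmb10 in place of the 3 constitutive catalytic subunits, which gives the immunoproteasome and changes the peptides offered to MHC class I.

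By the brightest probe sets, nearly every subunit gene had its highest signal in ES cells, and the B and T cell arrays were alike. Values are array intensities on a linear scale, called signals, compared for the same probe set between arrays. The detection level is the median of all values in the table, a signal of 95, which replaced any lower value before differences were taken on the log2 scale. Of the 41 genes, 40 were above that level in at least 1 array, and 39 were above it in all 3. Psmb11, the thymus-specific catalytic subunit, was below it throughout, with signals of 35.6 in the ES cell array, 41.7 for B cells and 34.5 for T cells. Among the 40 measured genes the ES cell array was the highest of the 3 for 38, and the lowest for 2, Psme1 and Psmd10. All 31 genes of the ubiquitously used core and regulatory particle subunits were higher in ES cells than in B cells and than in T cells. After quantile normalization this still held, with least differences of 0.05 against B cells and 0.07 against T cells on the log2 scale. It did not hold where probe sets with shared-target endings were passed over. Psma3 then stood at -2.60 against B cells and -2.33 against T cells, and Psmb1 at -0.63 and -0.59. With the mean over all probe sets Psma3 was again lower in ES cells in both comparisons.

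**Figure D1:**
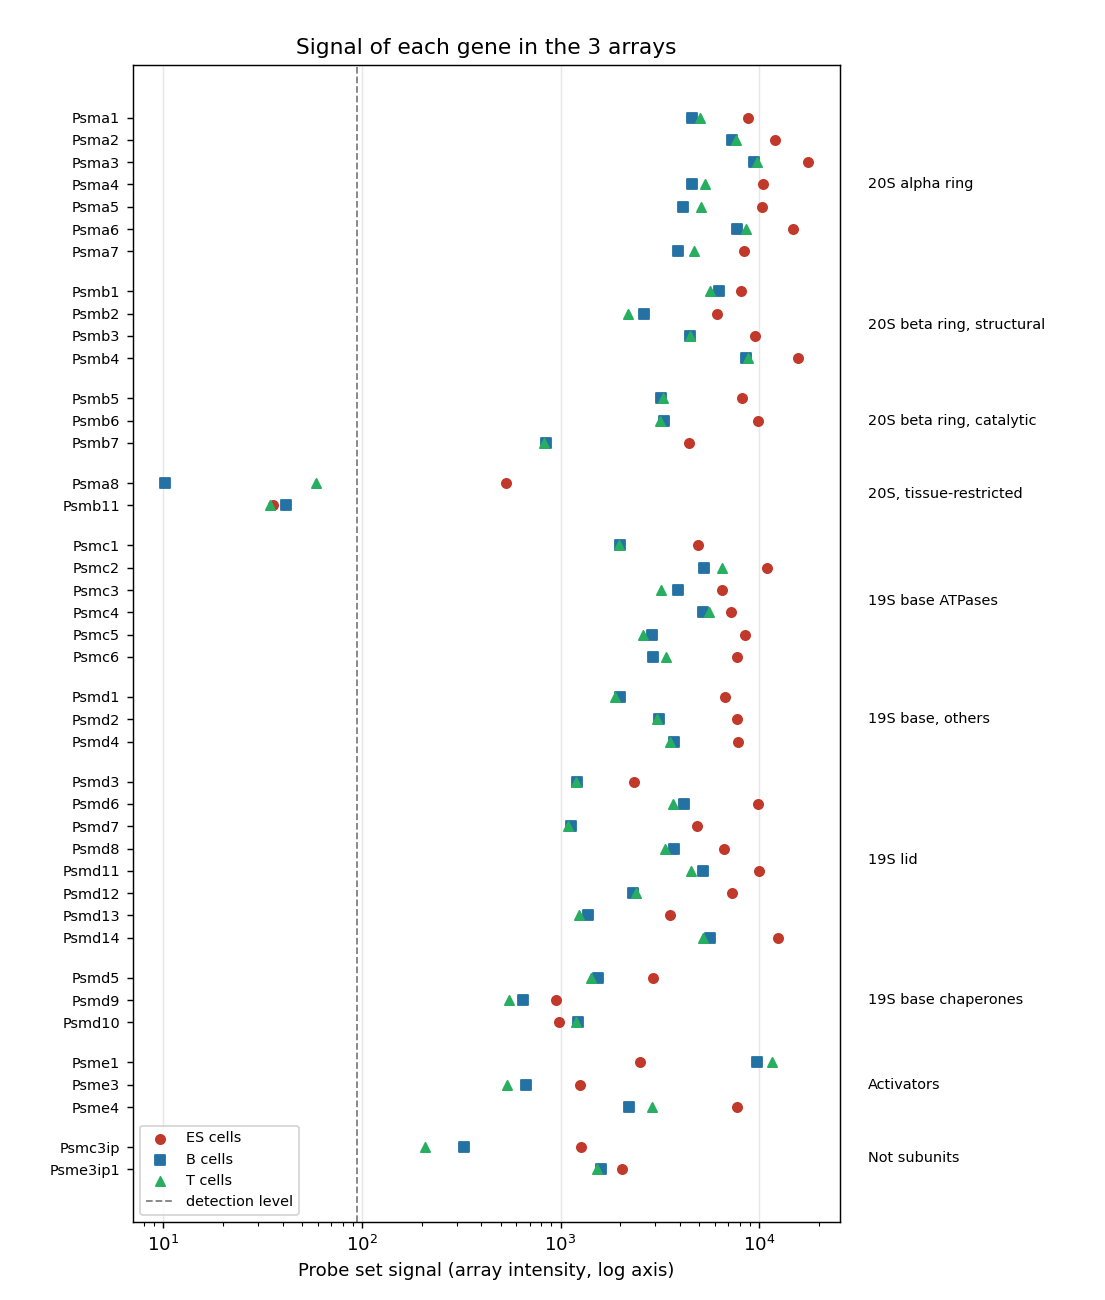
Signal of each gene (rows, grouped by structural role) in the ES cell, B cell and T cell arrays, on a log axis, with the detection level of 95 as a dashed line; each point is 1 array. The ES cell point lies to the right of both lymphocyte points for 38 of 40 measured genes, and Psme1 and Psmd10 are the exceptions.

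The size of the difference was modest. Against B cells 23 of 40 genes (57.5%) exceeded 2-fold with ES cells higher, beside 24.6% of the 12463 measured genes. Only Psme1 was at least 2-fold lower, where 21.1% of all measured genes were. Against T cells 24 of 40 genes (60%) passed 2-fold in the same direction, beside 24.7% of 12325 measured genes, and again Psme1 alone was lower, beside 22.7%. The median log2 difference was 1.09 against B cells and 1.11 against T cells, where all measured genes had medians of 0.07 and 0.11. These medians correspond to 2.12-fold and 2.16-fold. With a bar of 1.5-fold the counts were 34 and 35 of 40, beside 34.1% and 35.1% of all measured genes, and Psme1 alone was lower, beside 29.8% and 30.4%. With a bar of 4-fold 3 and 4 of 40 were higher, a share no greater than the 10.3% and 10.2% of all measured genes, and 0 and 1 were lower, beside 9.85% and 10.8%. Both comparisons use the same ES cell array, so they are not independent of each other.

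Of the 36 genes with a mean signal of at least 1000, 21 exceeded 2-fold with ES cells higher against B cells and 21 against T cells, and 1 was lower in each. Of all genes that bright, the share past 2-fold with ES cells higher was 24.3% against B cells and 24.7% against T cells, close to the shares over all genes. With ES cells lower it was 26.9% and 27.9%. Between T and B cells it was 6.86% higher and 6.62% lower in T cells. The 2 brightest detected probe sets of a gene gave log2 differences whose disagreement corresponds to an SD of 0.77 per probe set against B cells, over 5835 genes, and 0.91 over the 20 genes described here that had 2. The SD measures disagreement among probes and holds nothing on how cultures or animals vary.

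**Figure D2:**
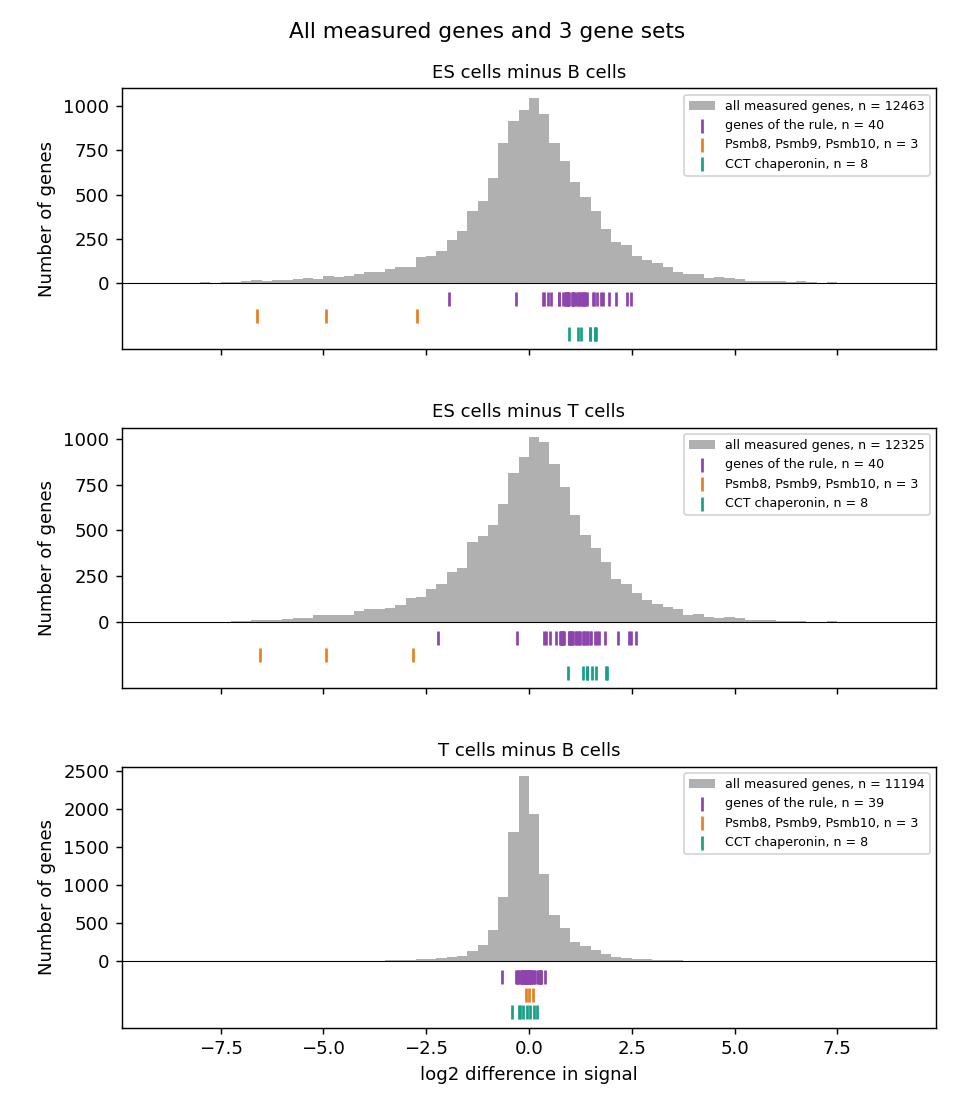
Histograms of the log2 difference of all measured genes for the 3 comparisons, with the genes of the symbol rule, the 3 immunoproteasome genes and the 8 CCT chaperonin genes as ticks below, 1 tick per gene. The rule's genes lie mostly to the right of the bulk in both comparisons with ES cells and close around 0 between T and B cells, and Psmb8, Psmb9 and Psmb10 lie far to the left in the first 2 panels.

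The alpha ring forms the gate of the core particle. Its 7 ubiquitous genes, Psma1 to Psma7, had signals of 8357 to 17523 in the ES cell array, 3912 to 9406 for B cells and 4719 to 9736 for T cells. Their differences were close together. They ran from 0.72 to 1.32 on the log2 scale against B cells and from 0.67 to 1.03 against T cells, with medians of 0.94 and 0.82. Psma5 had signals of 10330 in the ES cell array, 4146 for B cells and 5067 for T cells, and was 2.49-fold and 2.04-fold higher in ES cells. Psma2, at the other end, had signals of 12070, 7326 and 7606, and was 1.65-fold and 1.59-fold higher. At least 2-fold were 3 of the 7 against B cells (Psma4, Psma5 and Psma7) and 1 of 7 against T cells (Psma5), beside 24.6% and 24.7% of all measured genes. The brightest probe sets of Psma1, Psma3 and Psma6 have dimmer companions that ran the other way, down to -2.02, -2.60 and -1.03 against B cells.

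Psma8, the alpha subunit known from male germ cells, takes the place of Psma7 in spermatocytes. Its signal was 531.9 in the ES cell array, and the 10.2 of B cells and the 58.9 of T cells were both below the detection level. Against either of these it was higher in ES cells by at least 5.60-fold. It rests on 1 probe set.

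The structural beta subunits differed from each other more than the alpha subunits did. Psmb2 had signals of 6118 in the ES cell array, 2628 for B cells and 2185 for T cells, and was 2.33-fold and 2.80-fold higher in ES cells. Psmb3, with signals of 9475, 4496 and 4506, was 2.11-fold and 2.10-fold higher. Psmb4, with signals of 15637, 8528 and 8829, was 1.83-fold and 1.77-fold higher, and its other probe set gave 0.50 against B cells and -0.05 against T cells. Psmb1 differed least of the core subunits, at 1.29-fold and 1.43-fold, with signals of 8083, 6248 and 5656, and its probe sets spanned -0.63 to 0.67 on the log2 scale against B cells.

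All 3 constitutive catalytic subunits exceeded 2-fold with ES cells higher, beside 24.6% of all measured genes against B cells and 24.7% against T cells. Psmb7, which carries the trypsin-like site, had signals of 4414 in the ES cell array, 842.6 for B cells and 822.1 for T cells. It was 5.24-fold and 5.37-fold higher in ES cells, more than the other 30 ubiquitous subunit genes in either comparison, and stood at the 92.5th and 92.9th percentile of all measured genes. Psmb6, which carries the caspase-like site, had signals of 9887, 3298 and 3164, and was 3.0-fold and 3.13-fold higher. Psmb5, which carries the chymotrypsin-like site, had signals of 8223, 3190 and 3268, and was 2.58-fold and 2.52-fold higher. Each of these genes has a single probe set, so their values have no second reading.

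Their immunoproteasome partners, which the symbol rule leaves out, went the other way. Psmb9, the partner of Psmb6, had signals of 222.6 in the ES cell array, 6835 for B cells and 6812 for T cells, and was 30.7-fold and 30.6-fold lower in ES cells. Psmb10, the partner of Psmb7, had signals of 676.0, 4441 and 4750, and was 6.57-fold and 7.03-fold lower. Psmb8, the partner of Psmb5, had a signal of 84.6 in ES cells, below the detection level, against 9305 and 8906, and was at least 98.0-fold and 93.8-fold lower. Its dimmer probe set gave smaller differences in the same direction, -1.38 and -2.58 on the log2 scale, and 1.19 between T and B cells. Signals of different probe sets cannot be set against each other, but the ratio of partner to constitutive subunit can be compared between arrays. From ES cells to B cells that ratio was 92-fold greater for Psmb9 over Psmb6, 34.4-fold for Psmb10 over Psmb7 and at least 252-fold for Psmb8 over Psmb5. To T cells it was 95.6-fold, 37.7-fold and at least 236-fold greater. By the brightest probe sets, the 3 ratios differed between T and B cells by 0.13 or less on the log2 scale.

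**Figure D3:**
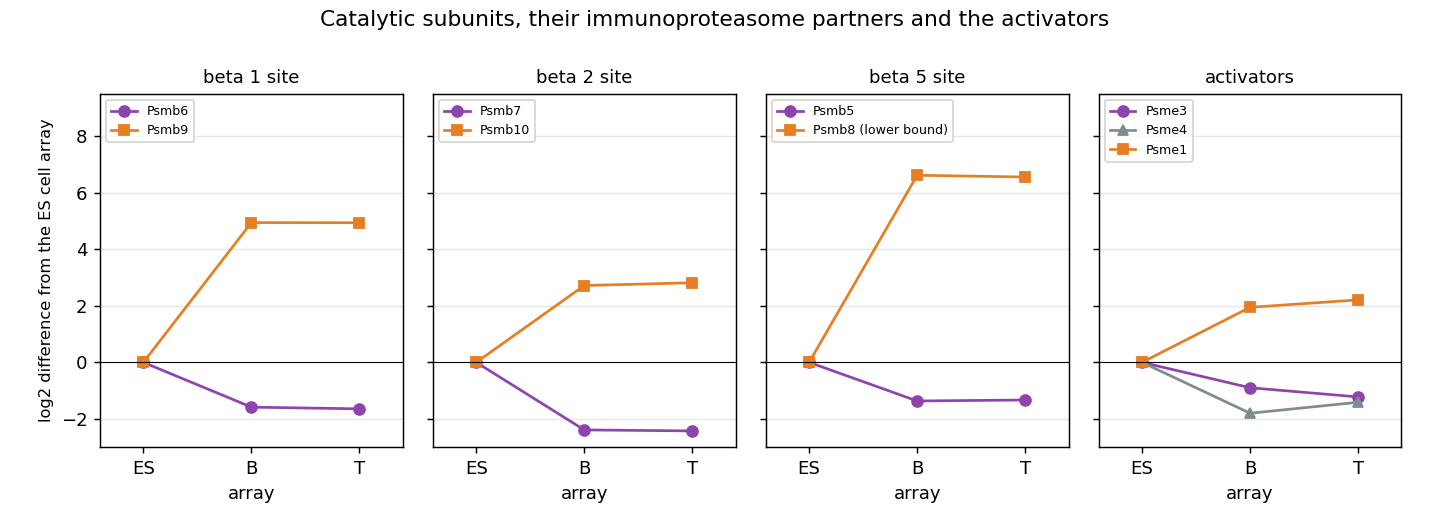
The log2 difference of each gene from its own value in the ES cell array, in panels for the 3 catalytic sites (constitutive subunit in purple, immunoproteasome partner in orange) and for the activators Psme1, Psme3 and Psme4; points are single arrays. In the B and T cell arrays the constitutive subunits lie below 0 and their partners above it, and Psme1 lies above 0 while Psme3 and Psme4 lie below.

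Whether promoter sequences bear on which of these genes move together was not tested. The sequences of 6 genes with opposite directions are shown. The genes are the catalytic pair Psmb6 and Psmb5 and the lid gene Psmd12, all higher in ES cells, and Psme1, Psmb9 and Psmb8, all lower. Each runs 5′ to 3′ on the strand of the gene, from 250 bases before to 50 bases after the RefSeq transcript start in build GRCm38.p6. Capitals mark matches to 5 motifs searched on both strands: CCAAT, the ETS core CCGGAAG, the GC box GGGCGG, the antioxidant-response-like TGACNNNGC and the NRF1 palindrome, which is GCGC and TGCGC with any 1 base between them. None of these holds another whole. Psmb7 and Psmd7 are not in the promoter table.
Psmb6 (chr11:70525107-70525406, plus strand): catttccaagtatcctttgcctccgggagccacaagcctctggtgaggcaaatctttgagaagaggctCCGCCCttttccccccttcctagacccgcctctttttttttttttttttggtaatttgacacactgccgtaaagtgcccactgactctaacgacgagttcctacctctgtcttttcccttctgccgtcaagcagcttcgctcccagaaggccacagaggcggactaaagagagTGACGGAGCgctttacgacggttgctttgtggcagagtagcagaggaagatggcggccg
Psmb5 (chr14:54617946-54618245, minus strand): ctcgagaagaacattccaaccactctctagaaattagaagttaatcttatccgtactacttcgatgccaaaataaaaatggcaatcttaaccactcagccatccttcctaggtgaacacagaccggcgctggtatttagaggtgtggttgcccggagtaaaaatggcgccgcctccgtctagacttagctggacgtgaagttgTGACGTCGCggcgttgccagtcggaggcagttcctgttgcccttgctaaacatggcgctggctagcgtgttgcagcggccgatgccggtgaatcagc
Psmd12 (chr11:107479278-107479577, plus strand): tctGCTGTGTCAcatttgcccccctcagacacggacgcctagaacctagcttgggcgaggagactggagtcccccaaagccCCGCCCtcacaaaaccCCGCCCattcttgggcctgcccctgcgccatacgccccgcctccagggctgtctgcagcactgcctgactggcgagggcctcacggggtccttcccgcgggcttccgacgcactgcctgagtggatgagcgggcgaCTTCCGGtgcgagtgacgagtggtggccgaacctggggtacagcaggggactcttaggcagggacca
Psme1 (chr14:55578244-55578543, plus strand): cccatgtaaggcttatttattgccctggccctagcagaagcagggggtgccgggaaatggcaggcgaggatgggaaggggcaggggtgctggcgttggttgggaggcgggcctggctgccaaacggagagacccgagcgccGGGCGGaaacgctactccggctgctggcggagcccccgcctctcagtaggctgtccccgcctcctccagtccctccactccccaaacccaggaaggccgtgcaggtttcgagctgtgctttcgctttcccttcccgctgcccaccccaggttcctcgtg
Psmb9 (chr17:34187281-34187580, minus strand): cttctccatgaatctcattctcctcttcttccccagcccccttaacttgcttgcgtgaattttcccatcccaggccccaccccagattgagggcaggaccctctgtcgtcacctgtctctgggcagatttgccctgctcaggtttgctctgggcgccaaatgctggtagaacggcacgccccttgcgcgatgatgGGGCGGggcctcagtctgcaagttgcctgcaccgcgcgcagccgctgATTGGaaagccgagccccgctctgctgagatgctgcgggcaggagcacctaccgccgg
Psmb8 (chr17:34197945-34198244, plus strand): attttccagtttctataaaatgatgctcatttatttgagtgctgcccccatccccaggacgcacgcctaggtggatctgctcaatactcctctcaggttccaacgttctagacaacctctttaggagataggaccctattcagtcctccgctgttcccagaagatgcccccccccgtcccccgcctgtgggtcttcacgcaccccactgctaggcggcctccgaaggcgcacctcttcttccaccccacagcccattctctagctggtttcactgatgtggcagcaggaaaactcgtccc

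Psmb5 and Psmb6 both held the antioxidant-response-like letters, at positions -47 and -9 from the start, and Psmd12 held them at -247. The windows of Psme1, Psmb8 and Psmb9 did not hold them. Of the 31 core and regulatory particle genes, 25 had a window. The ETS core was in 10 of these 25 (40.0%), beside 15% of 14452 genes with a probe set and 9.93% of all 27025 genes in the table. The NRF1 palindrome was in 6 of 25 (24%), beside 8.61% and 5.19%. No gene of the 25 held both, so 16 (64.0%) held either, beside 21.7% of genes with a probe set. CCAAT was in 10 of 25 (40.0%), beside 42.0% of genes with a probe set and 41.1% of all genes in the table. The GC box was in 15 (60%), beside 57.3% and 38.2%, and the antioxidant-response-like letters were in 4 (16%), beside 16.2% and 14%. Psmb5, Psmb6 and Psmd12 are 3 of these 4 genes, so the windows shown overstate how common these letters are. The immunoproteasome genes held neither the ETS core nor the NRF1 palindrome in their 3 windows. The CCT chaperonin, another large complex, held them about as often as the proteasome genes, with the ETS core in 3 of 7 genes (42.9%) and the NRF1 palindrome in 2 (28.6%). A match is a run of letters, not a shown binding site. Among the 25 genes the median log2 difference between ES and B cells was 1.26 with the ETS core and 1.10 without it, 1.02 with the NRF1 palindrome and 1.23 without it, and 1.49 with the antioxidant-response-like letters (4 genes) and 1.08 without them.

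The base of the regulatory particle is built on a ring of 6 ATPases, Psmc1 to Psmc6. Of these, 4 exceeded 2-fold against B cells and 4 against T cells, with ES cells higher, beside 24.6% and 24.7% of all measured genes. Psmc5 differed most, with signals of 8506 in the ES cell array, 2897 for B cells and 2597 for T cells, or 2.94-fold and 3.28-fold. Psmc6, with signals of 7700, 2908 and 3382, was 2.65-fold and 2.28-fold higher, with a dimmer probe set at -0.29 against T cells, and Psmc1, with 4911, 2002 and 1958, was 2.45-fold and 2.51-fold higher. Psmc4 differed least, with signals of 7188, 5224 and 5614, or 1.38-fold and 1.28-fold. Its second probe set gave log2 differences of 1.36 and 1.32, against 0.46 and 0.36 for the brighter probe set, so the place of Psmc4 as the least different ATPase rests on the choice of probe set.

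The other 3 base genes encode the scaffold subunits Psmd1 and Psmd2 and the ubiquitin receptor Psmd4. All 3 exceeded 2-fold in both comparisons, with ES cells higher, beside 24.6% and 24.7% of all measured genes. Psmd1 had signals of 6735 in the ES cell array, 1988 for B cells and 1878 for T cells, or 3.39-fold and 3.59-fold. Psmd2 had signals of 7720, 3126 and 3067, or 2.47-fold and 2.52-fold. Psmd4 had signals of 7839, 3734 and 3546, or 2.10-fold and 2.21-fold, and the dimmest of its 3 probe sets gave -0.08 and -0.39.

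In the lid, which covers the side of the base, 5 of 8 subunits exceeded 2-fold against B cells and 6 of 8 against T cells, with ES cells higher, beside 24.6% and 24.7% of all measured genes. Psmd7, the partner of the deubiquitinating subunit, had signals of 4867 in the ES cell array, 1123 for B cells and 1093 for T cells, or 4.33-fold and 4.45-fold, while a dim probe set of the gene gave -0.26 against B cells. Psmd12 had signals of 7302, 2311 and 2397, or 3.16-fold and 3.05-fold. Psmd14, the deubiquitinating enzyme itself, had signals of 12393, 5640 and 5232, or 2.20-fold and 2.37-fold. Psmd13 was 2.57-fold and 2.87-fold higher and Psmd6 2.35-fold and 2.66-fold. Psmd11, whose level is known to affect the assembly of capped proteasomes in pluripotent cells, had signals of 10023, 5206 and 4535, or 1.93-fold and 2.21-fold, and its 4 brightest probe sets gave 0.95, 1.34, 1.23 and 0.30 on the log2 scale against B cells. Psmd3 at 1.95-fold and 1.97-fold and Psmd8 at 1.79-fold and 1.98-fold stayed below 2-fold in both comparisons.

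**Figure D4:**
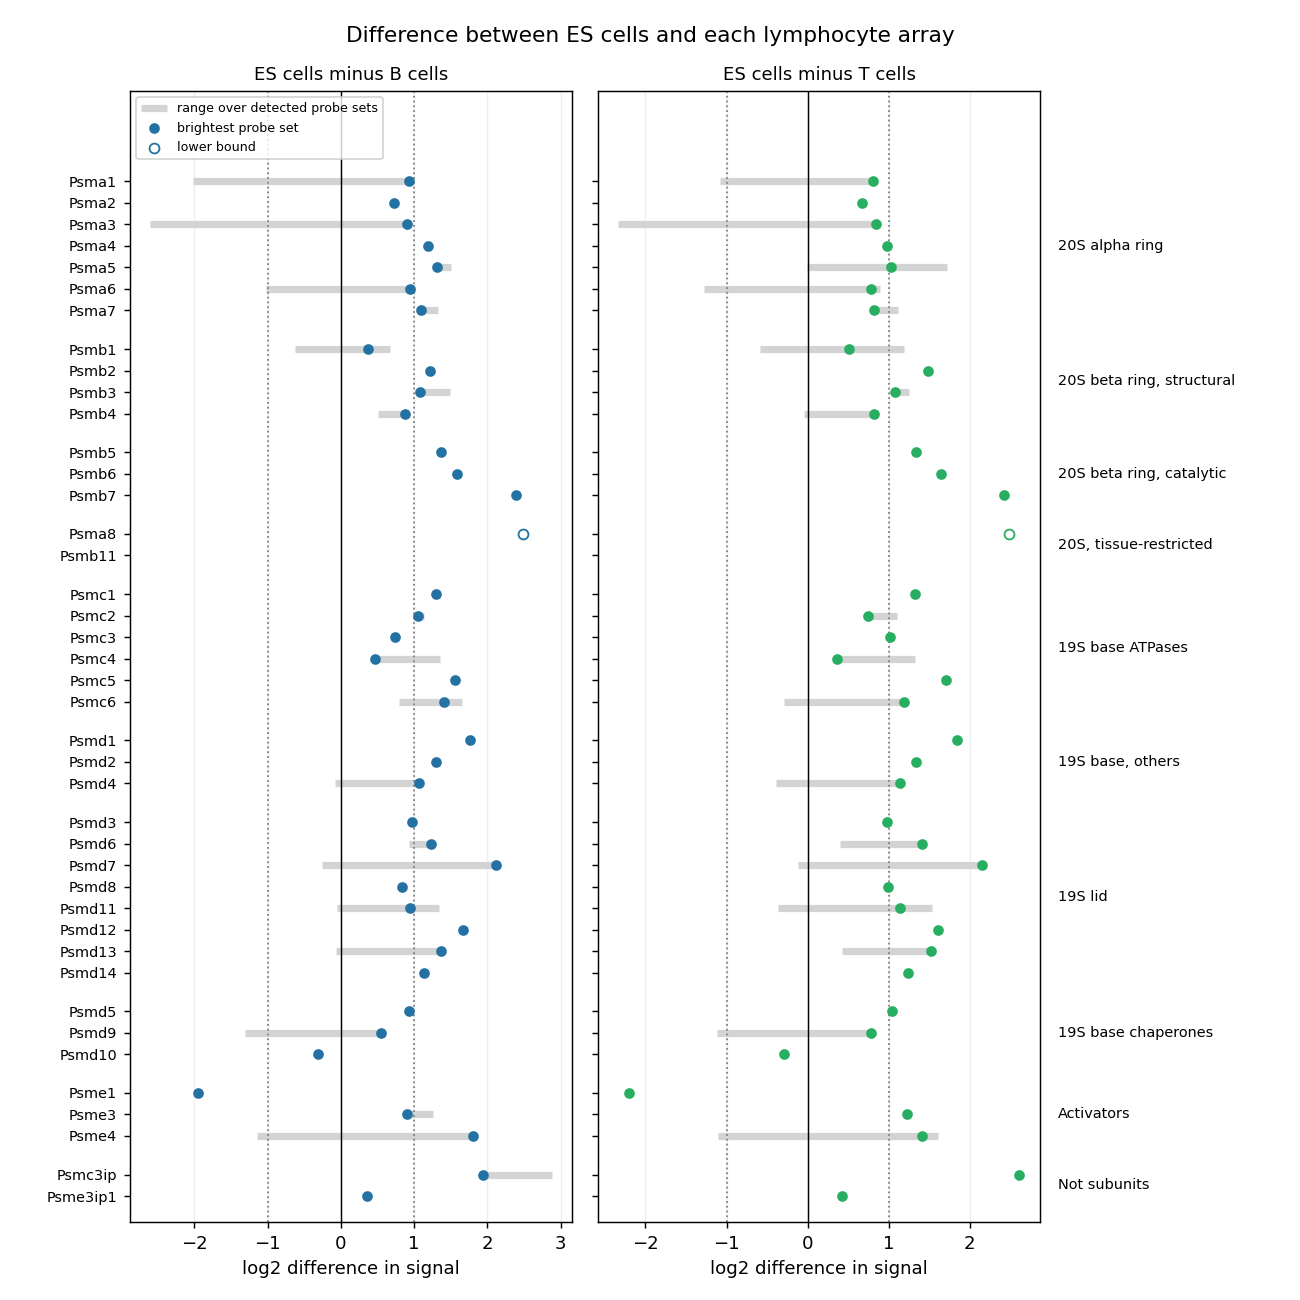
The log2 difference of each gene between ES cells and B cells (left) and between ES cells and T cells (right), by structural role; dots are the brightest probe set, open circles are lower bounds, grey bars span the detected probe sets of the gene, and dotted lines mark 2-fold. Dots of the core and regulatory particle subunits all lie right of 0, with Psmb7 and Psmd7 farthest out among them, and several grey bars reach left of 0.

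Psmd5, Psmd9 and Psmd10 encode chaperones that assemble the base and are not part of the finished particle. Against B cells 0 of these 3 exceeded 2-fold with ES cells higher, beside 24.6% of all measured genes. Against T cells 1 did, beside 24.7%. Of the 31 core and regulatory particle genes, 11 also stayed below 2-fold against B cells. Psmd5 had signals of 2919 in the ES cell array, 1537 for B cells and 1418 for T cells, or 1.90-fold and 2.06-fold. Psmd9 had signals of 947.2, 649.6 and 553.2, or 1.46-fold and 1.71-fold, and a dimmer probe set gave -1.31 and -1.12. Psmd10, which encodes gankyrin, had signals of 981.9, 1218 and 1203, and was 1.24-fold and 1.23-fold lower in ES cells. With scaling to the 75th percentile, which adds 1 constant to every gene, Psmd10 stood at 0.04 and 0.09, below the medians of all genes under that scaling, 0.37 and 0.42.

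The activators went in opposite directions. Psme1 encodes a chain of the interferon-inducible PA28 ring, which binds the ends of the core particle. It had signals of 2520 in the ES cell array, 9706 for B cells and 11648 for T cells, and was 3.85-fold and 4.62-fold lower in ES cells, at the 10.2th and 9.38th percentile of measured genes. Psme1, with the 3 immunoproteasome genes, belongs to the machinery that feeds MHC class I, and in these arrays it had their direction and not that of the subunits. Psme4, which encodes the nuclear activator PA200, had signals of 7687, 2208 and 2891, or 3.48-fold and 2.66-fold higher in ES cells. Of its 6 probe sets, the 3 brightest gave 1.8, 1.39 and 1.26 on the log2 scale against B cells and the 3 dimmest gave -1.15, -0.95 and -0.11. Psme3, which encodes the nuclear PA28 gamma ring, had signals of 1255, 673.8 and 537.7, or 1.86-fold and 2.33-fold higher. Of the 2 genes that are neither subunits, chaperones nor activators, Psmc3ip had signals of 1262, 328.1 and 207.3, or 3.85-fold and 6.09-fold higher in ES cells. Psme3ip1 was 1.28-fold and 1.34-fold higher.

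By the brightest probe sets, T and B cells differed little in any of these genes. Of 39 genes measured in this comparison 0 exceeded 2-fold in T cells and 0 in B cells, beside 8.88% and 6.32% of 11194 measured genes. All but Psmc3ip, which was 1.58-fold lower in T cells, lay within 1.5-fold, while 16.2% of all measured genes exceeded 1.5-fold with T cells higher and 14.1% with T cells lower. The middle 50% of the genes lay between -0.15 and 0.08 on the log2 scale, where that of all genes spanned -0.36 to 0.32. The extremes among subunits and activators were Psme4, 1.31-fold higher in T cells, and Psme3, 1.25-fold lower. Over all probe sets of the genes the spread was wider. Those with a mean signal of at least 1000 ran from -0.28 to 0.55, and dimmer detected ones from -1.18 to 1.085. Of 20 genes with 2 detected probe sets, the 2 brightest gave opposite signs in 9. The 7 alpha ring genes were all higher in T cells, by 0.05 to 0.29, and 7 of the 8 lid genes were lower, by 0.01 to 0.20. Both orders held under quantile normalization, but every one of these differences is smaller than the SD of 0.40 between probe sets of a gene in this comparison. Both orders also rest on the brightest probe sets. Other probe sets with a mean signal of at least 1000 gave -0.22 for Psma5, 0.12 for Psma6 and 0.21 for Psma7. In the lid such probe sets gave 0.53 for Psmd6, 0.01 for Psmd13, and 0.35, -0.19 and -0.27 for Psmd11.

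**Figure D5:**
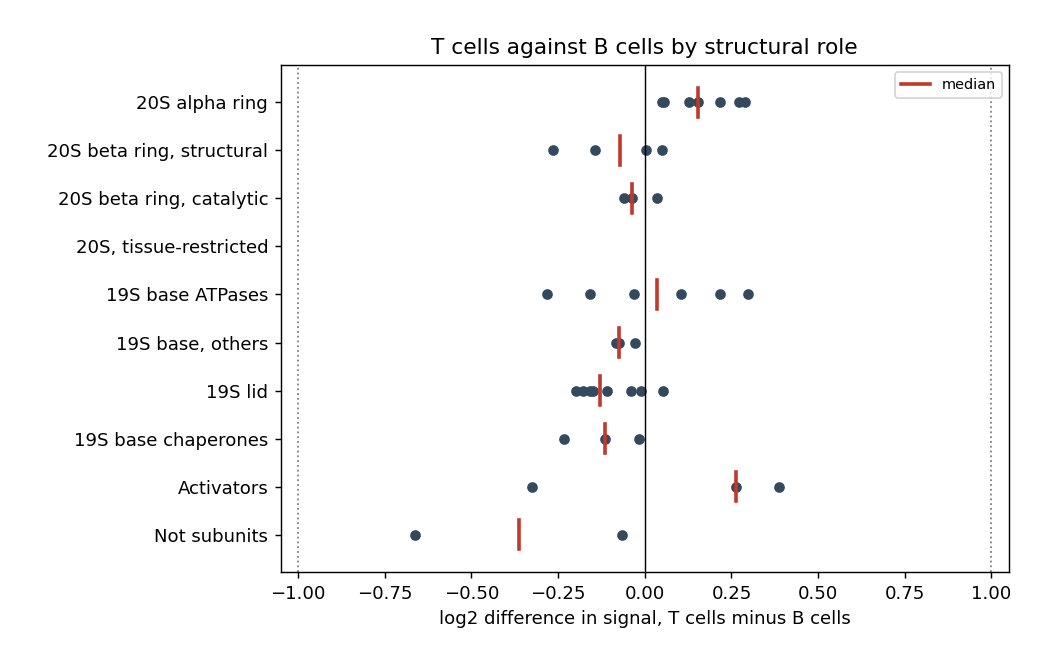
The log2 difference between T and B cells of each measured gene (points), by structural role, with the median of each group of more than 1 gene as a red bar and 2-fold as dotted lines. All points lie inside the 2-fold lines, the 7 alpha ring points lie right of 0 and 7 of the 8 lid points left of it.

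Genes that act with the proteasome were set beside the subunits by lists of their roles. Of 28 such genes with a single-symbol probe set, 10 (35.7%) exceeded 2-fold against B cells with ES cells higher and 1 (3.57%) with ES cells lower, and the median was 0.77. Against T cells 8 (28.6%) were higher and 1 lower, with a median of 0.73. These shares lie between those of the subunits and of all measured genes. Among the 5 genes for core assembly, Psmg1 was 4.82-fold and 3.15-fold higher in ES cells, with signals of 5119, 1062 and 1624. Pomp, the maturation factor of the core, was 1.83-fold and 1.69-fold higher. Among enzymes that bind the regulatory particle, the deubiquitinase Usp14 was 3.96-fold and 3.08-fold higher and Uchl5 2.47-fold and 1.97-fold, and dimmer probe sets of Usp14 reached -0.85 against B cells. The small lid subunit gene Sem1 was 1.19-fold and 1.16-fold higher, and turned to -0.07 and -0.08 under quantile normalization.

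Of 8 genes for ubiquitin shuttling and the p97 unfoldase, 5 exceeded 2-fold against B cells and 4 against T cells, with ES cells higher, beside the 24.6% and 24.7% of all measured genes. The shuttle gene Rad23b was 2.91-fold and 3.55-fold higher, with a dimmer probe set at -0.31 and -0.37, and Vcp, which encodes p97, was 1.97-fold and 1.92-fold higher, with signals of 11498, 5845 and 5982, while its dimmer probe set ran the other way, at -1.25 and -1.06 on the log2 scale. The ubiquitin-activating enzyme gene Uba6 was 3.21-fold and 4.08-fold higher, although a dimmer probe set gave -1.12 against B cells. Among 8 genes linked to transcription of the subunits, 0 exceeded 2-fold with ES cells higher in either comparison, where 24.6% and 24.7% of all measured genes did. Nfe2l1, whose protein drives subunit genes when the proteasome is inhibited, had signals of 1279, 1018 and 687.2, or 1.26-fold and 1.86-fold higher. Ngly1, the deglycosylating enzyme that acts on that protein, was the exception in the other direction, with signals of 402.2, 1676 and 2734, or 4.17-fold and 6.80-fold lower in ES cells. As another large constitutive complex, the CCT chaperonin, which folds actin and tubulin, had 7 of 8 genes past 2-fold in each comparison, ES cells higher, beside those same 24.6% and 24.7%, with medians of 1.48 and 1.48, above those of the proteasome genes.

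Markers of other cells moved with the same contrast. The arrays carried the markers of their labels: all 5 ES cell markers passed the detection level in their own array and none did in a lymphocyte array, the 4 measured B cell markers were above it in B cells, and the 5 T cell markers in T cells. All 6 fibroblast markers passed the detection level in the ES cell array, with a summed signal of 47569, beside 469.0 for B cells and 7481 for T cells, and most of the last is Thy1, which T cells also express. The summed signal of 5 proliferation markers was 55838 in the ES cell array, 19587 for B cells and 17106 for T cells. The summed signal of 6 macrophage markers was 3605 in the ES cell array, 20719 for B cells and 49019 for T cells, while 3 of 4 B cell markers passed the detection level in the T cell array and 3 of 5 T cell markers in the B cell array. The part of fibroblasts, dividing cells or macrophages in the differences of the proteasome genes was not tested. In RNA from whole populations, fewer cells of a type and less RNA per cell cannot be told apart.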

How the data were processed

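Messenger RNA of 3 mouse populations was labelled with the GeneChip 3' IVT Express Kit and measured on 1 array each. The authors deposited 1 linear intensity for each of 45037 probe sets and array, made with Affymetrix Expression Console per the submitters' processing notes, with version, algorithm and scaling target not given in the sources used here. Trimmed means (2% off each end) were 497.3 to 497.8, so total signal was near equal, and a general change in mRNA per cell cannot be seen.

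Gene names came from GEO's platform annotation: 34945 had 1 gene symbol, 932 several and 9160 none, and only the first were used. All 41 Entrez IDs were found in a RefSeq gene table (GRCm38.p6) and 0 symbols changed. Detection was set at the 50th percentile of the whole table. A gene was measured in a comparison where either array was above it, and a fold against an array below it is written "at least". A gene was counted at 2-fold or more with the brighter array above the detection level. Every gene of the symbol rule and of the gene lists could be named. Promoters are RefSeq windows of 300 bases (GRCm38.p6), found for 34 of the 41 genes. The members and lists were chosen with earlier results of these data known. A planned comparison of protein sequences was not run. The counting was tested on simulated data. Python 3.11.15, numpy 2.4.6 and pandas 2.3.3 were used. The alternatives tried were scaling to the 75th percentile, quantile normalization, 16 added in place of a floor, the detection level at the 65th percentile, other probe sets or folds, and a stricter member list. Those for T against B cells counts and the set of genes with a mean signal of at least 1000 were chosen after seeing the data.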

Additional observations from a re-analysis of the deposited data

How the results depend on the processing

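Each alternative changed 1 choice. Against B cells, the median log2 difference of 1.09 became 0.88 with quantile normalization, 1.43 with scaling to the 75th percentile and 0.79 with the mean over all probe sets. Against T cells, 1.11 became 0.93, 1.49 and 0.87 in the same order. The first 2 scalings also moved the median of all genes, to 0.22 and 0.37 against B cells and 0.26 and 0.42 against T cells, so that relative to all genes the median was 0.66 and 1.06, and 0.67 and 1.07, in place of 1.01 and 1.0. The counts of 23 and 24 genes at least 2-fold higher in ES cells were 15 and 14 with the mean over all probe sets, all of them among the 23 and the 24, beside 18.8% and 19.1% of all measured genes. They were 3 and 4 at 4-fold. With quantile normalization they were 17 and 18, and with the 75th percentile 34 and 35, beside 27.2% and 28.2%, and 31.4% and 32.8%, of all measured genes. The count of 1 gene lower in ES cells was 0 against B cells at 4-fold, beside 9.85% of all measured genes. It was 2 in both comparisons where probe sets with shared-target endings were passed over, beside 21.9% and 23.3%. The gene added to Psme1 was then Psma3, at -2.60 against B cells and -2.33 against T cells. Between T and B cells, counts of 0 became 1 higher and 1 lower with shared-target probe sets passed over, beside 8.82% and 6.49% of all measured genes. At 1.5-fold 1 was lower in T cells, beside 14.1%. No paired analysis was possible because each group has 1 array. Dim probe sets limit the second readings, but not all of them are near the detection level. The Psma3 probe set that ran the other way had a signal of 703.8 for B cells. The number of arrays limits everything else.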

Other observations

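The dimmer probe sets of the proteasome genes did not share the direction of the bright ones. Of 51 probe sets with a mean signal of at least 1000, from 36 genes, 49 were higher in ES cells than in B cells, and the exceptions were Psme1 and Psmd10. Their median log2 difference was 1.14. Of 26 dimmer probe sets above the detection level, from 14 genes, 10 were higher and 16 lower in ES cells, with a median of -0.10 and a range from -2.60 to 2.88. Against T cells the counts were 48 of 51 and 10 of 26 higher. The lowest of the dim probe sets against B cells belonged to Psma3, with signals of 115.9 in the ES cell array, 703.8 for B cells and 584.5 for T cells, while the bright Psma3 probe set read 17523, 9406 and 9736. What these dim probe sets hybridise to was not tested.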
